A study of Rattus norvegicus with 28 samples.

Results

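Neurofilament and fast-firing neuron genes were followed here in rat prefrontal cortex, the front part of the cortex that serves planning and flexible behaviour. The 8 genes are Nefl, Nefm, Nefh, Scn4b, Cplx1, Hapln4, Syt2 and Kcnc1, and each has 1 record among the 36387 rows of the deposited count table. They were selected on their measured counts, because Nefl, Scn4b, Cplx1 and Hapln4 had been seen to be lower after psilocybin at 3 mg/kg than at 1 mg/kg. The contrast between these doses of psilocybin is therefore given below as a description with no test. All 8 genes passed the filter on low counts, which left 17404 genes.

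The 28 rats sequenced were adult males of the outbred Sprague-Dawley stock, with 4 in each of 7 groups. The animals were 8 weeks old when they arrived, and tissue was taken 24 h after the injections. Every animal had a pair of intraperitoneal injections, so the groups share the handling and both vehicles where no drug was given. The groups were psilocybin at 3 mg/kg, psilocybin at 1 mg/kg, ketanserin at 3 mg/kg, ketanserin at 1 mg/kg, both drugs at 3 mg/kg each, both drugs at 1 mg/kg each, and vehicle. Rats given psilocybin alone had the Tween-80 vehicle of ketanserin, rats given ketanserin alone had the saline vehicle of psilocybin, and vehicle rats had both vehicles. The protocol says that the psilocybin injection followed the ketanserin injection, while the series text calls the combined injections simultaneous. Psilocin, the active product of psilocybin, stimulates serotonin receptors, whereas ketanserin is an antagonist at one that psilocin acts on. The design asks which transcripts differ a day after each drug and whether ketanserin alters the response to psilocybin.

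Neurofilaments are the main intermediate filaments of the axon. The light chain can form the core of the filament, the medium and heavy chains carry long tails that project from it, and their amount is known to go with axon calibre. In cortex the heavy and medium chains are abundant in large projection neurons and also occur in parvalbumin interneurons, which fire fast trains of spikes. Such firing depends on sodium channels that recover quickly, potassium channels that close quickly, synchronous transmitter release, and the matrix that wraps these cells. In mice, the coactivator Ppargc1a is known to be needed for normal Syt2, Cplx1 and Nefh levels in parvalbumin cells.

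Total counts per library were 12783067 to 18538414. Pairs of libraries differed beyond sampling noise, at 6.19 to 175 units of chi-square for each gene. The excitatory cortical marker Slc17a7 was at 2200 to 2910 CPM (read counts scaled to the library total) and Slc17a6, of thalamic and brainstem neurons, at 4.88 to 15.5 CPM. Eomes, a marker of olfactory bulb projection neurons, was at 0 in 10 of 28 libraries. Replicate 4 of the rats given both drugs at 3 mg/kg stood apart, with 19602 rows at 0 against 15344 to 16657 in the others and a median correlation with the others of 0.90 against 0.951 to 0.974. Psilocybin 3 mg/kg replicate 1 had the lowest scaling factor, at 0.904. Replicate numbers only name animals, and p-values weigh differences between groups against the spread between these animals.

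Per unit of gene length, the levels spanned a wide range. On the deposited FPKM scale, Cplx1 averaged 369 ± 64.7 (SD, n = 28 libraries), which ranked 190th of 36387 rows. Nefl averaged 162 ± 19.3 FPKM, Nefm 82.7 ± 18.4 and Hapln4 57.0 ± 13.9. Nefh averaged 38.2 ± 10.3 FPKM, Kcnc1 31.6 ± 4.88 and Scn4b 15.7 ± 4.68. Syt2 was the lowest, at 4.07 ± 2.21 FPKM, with 54 to 381 reads in a library. The spread between animals of a group also differed among the genes. The coefficient of variation within groups averaged 7.77% for Nefl, wider than in only 5.55% of tested genes, and 46.8% for Syt2, wider than in 81.2% of them. Scn4b was at 24.5%, Nefh at 19.6%, Nefm at 18.2%, Hapln4 at 17.9%, Cplx1 at 14.0% and Kcnc1 at 13.8%.

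Promoter windows from RefSeq, with 250 bases before and 50 after the annotated start on build GRCr8, matched 5 of the 8 genes (Scn4b, Cplx1, Hapln4, Syt2 and Kcnc1). Their GC content was 54.0% for Syt2 and 64.7 to 74.0% for the other 4, against a median of 51.7% over 33469 windows. The letters GGGCGG, the box bound by Sp1, were found on either strand in the windows of Cplx1 and Kcnc1 and in 33.1% of all windows. Also searched on both strands were AAGGTCA, a site of estrogen-related receptors, which partner Ppargc1a (4.61% of all windows), TATAAA (14.2%), CACGTG (6.42%), TGACGTCA (1.83%) and the MEF2 box (0.128%), with no match in the 5 windows. None of these motifs overlapped another in the matches found. Cplx1 and Kcnc1 are shown because they hold the box and are the pair that varied least together across animals below, and Syt2 because it varied most between animals and has the least GC. Capitals mark the box or its reverse complement. The windows rest on the annotated start, and whether transcription in cortex begins there was not tested, for Syt2 or the others. The Syt2 window ends with an atg followed by an open reading frame that runs to its last base. It may thus hold coding sequence, and its GC content and lack of matches need not describe a promoter. The windows are chr14:1328823-1329122 (plus strand) for Cplx1, chr1:106038997-106039296 (plus) for Kcnc1 and chr13:48736872-48737171 (plus) for Syt2.
Cplx1: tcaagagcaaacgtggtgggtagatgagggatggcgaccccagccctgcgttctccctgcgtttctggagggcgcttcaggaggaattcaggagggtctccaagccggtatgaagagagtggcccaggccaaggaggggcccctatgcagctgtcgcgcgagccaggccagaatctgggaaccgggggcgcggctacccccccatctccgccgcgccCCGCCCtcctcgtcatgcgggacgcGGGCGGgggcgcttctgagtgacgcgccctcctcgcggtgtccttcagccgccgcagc
Kcnc1: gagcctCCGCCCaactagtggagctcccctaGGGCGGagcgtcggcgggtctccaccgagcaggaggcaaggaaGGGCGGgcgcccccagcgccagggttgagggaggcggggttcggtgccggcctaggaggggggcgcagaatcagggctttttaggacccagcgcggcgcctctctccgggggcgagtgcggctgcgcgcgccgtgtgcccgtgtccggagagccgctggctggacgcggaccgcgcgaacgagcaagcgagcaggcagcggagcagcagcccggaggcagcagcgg
Syt2: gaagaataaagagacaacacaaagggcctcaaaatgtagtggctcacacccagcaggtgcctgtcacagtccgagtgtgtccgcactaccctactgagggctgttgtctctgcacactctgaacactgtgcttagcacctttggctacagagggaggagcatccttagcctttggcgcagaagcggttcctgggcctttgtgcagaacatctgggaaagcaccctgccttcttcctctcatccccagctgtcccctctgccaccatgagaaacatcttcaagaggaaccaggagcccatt

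The filament genes were lowest after psilocybin at 3 mg/kg and highest after psilocybin at 1 mg/kg, with the other 5 groups between. Nefl, the light chain (ENSRNOG00000013658, rn6 chromosome 15, 44799334 to 44804574, plus strand), was at 511, 485, 444 and 458 CPM after psilocybin at 3 mg/kg, against 576, 736, 714 and 603 CPM at 1 mg/kg. The 4 vehicle libraries were at 576, 567, 550 and 574 CPM. The libraries of the higher dose thus lay below all libraries of the lower dose and below all vehicle libraries, and the vehicle libraries lay close together. The log2 difference between the psilocybin doses, 3 over 1 mg/kg, was -0.47 (SE 0.0926), a difference of -27.8%. Against vehicle it was -0.26 at 3 mg/kg and 0.21 at 1 mg/kg. In bulk tissue, fewer cells of a type and less RNA per cell cannot be told apart.

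Nefl in the groups that did not serve to choose the genes was nearly level. It was at 535, 536, 632 and 568 CPM after ketanserin at 3 mg/kg, against 500, 575, 517 and 591 at 1 mg/kg. With both drugs it was at 564, 448, 577 and 578 CPM at 3 mg/kg each, against 501, 531, 579 and 558 at 1 mg/kg each. These groups overlapped, and 1 library given both drugs at 3 mg/kg was far below the other 3.

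Nefm, the medium chain (ENSRNOG00000013916, chromosome 15, 44855310 to 44860604, minus strand), lies 50735 bases from Nefl in tail-to-tail orientation, with no other record of the table wholly between them. It was at 219, 195, 159 and 182 CPM after psilocybin at 3 mg/kg, against 227, 385, 354 and 258 at 1 mg/kg and 272, 230, 233 and 305 in vehicle. The highest library of the higher dose lay just below the lowest of the lower dose and of vehicle. Between the doses the log2 difference was -0.70 (SE 0.187). With both drugs Nefm was at 229, 181, 279 and 340 CPM at 3 mg/kg, against 225, 235, 237 and 271 at 1 mg/kg. The range at 3 mg/kg held that at 1 mg/kg within it. With ketanserin alone Nefm was at 206, 216, 348 and 259 CPM at 3 mg/kg, against 221, 274, 278 and 330 at 1 mg/kg, which overlapped.

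Nefh, the heavy chain (ENSRNOG00000008716, chromosome 14, 85181572 to 85191557, minus strand), was at 148, 116, 83.2 and 94.0 CPM after psilocybin at 3 mg/kg, against 125, 242, 244 and 198 at 1 mg/kg. Vehicle libraries were at 157, 172, 133 and 188 CPM. Replicate 1 of the lower dose was below the top library of the higher dose, so these groups overlapped. Dose against dose, the log2 difference was -0.88 (SE 0.206). After both drugs Nefh was at 133, 112, 146 and 192 CPM at 3 mg/kg, against 120, 132, 136 and 122 at 1 mg/kg. With ketanserin alone it was at 108, 116, 192 and 149 CPM at 3 mg/kg, against 123, 147, 165 and 162 at 1 mg/kg. Both pairs of groups overlapped.

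**Figure D1:**
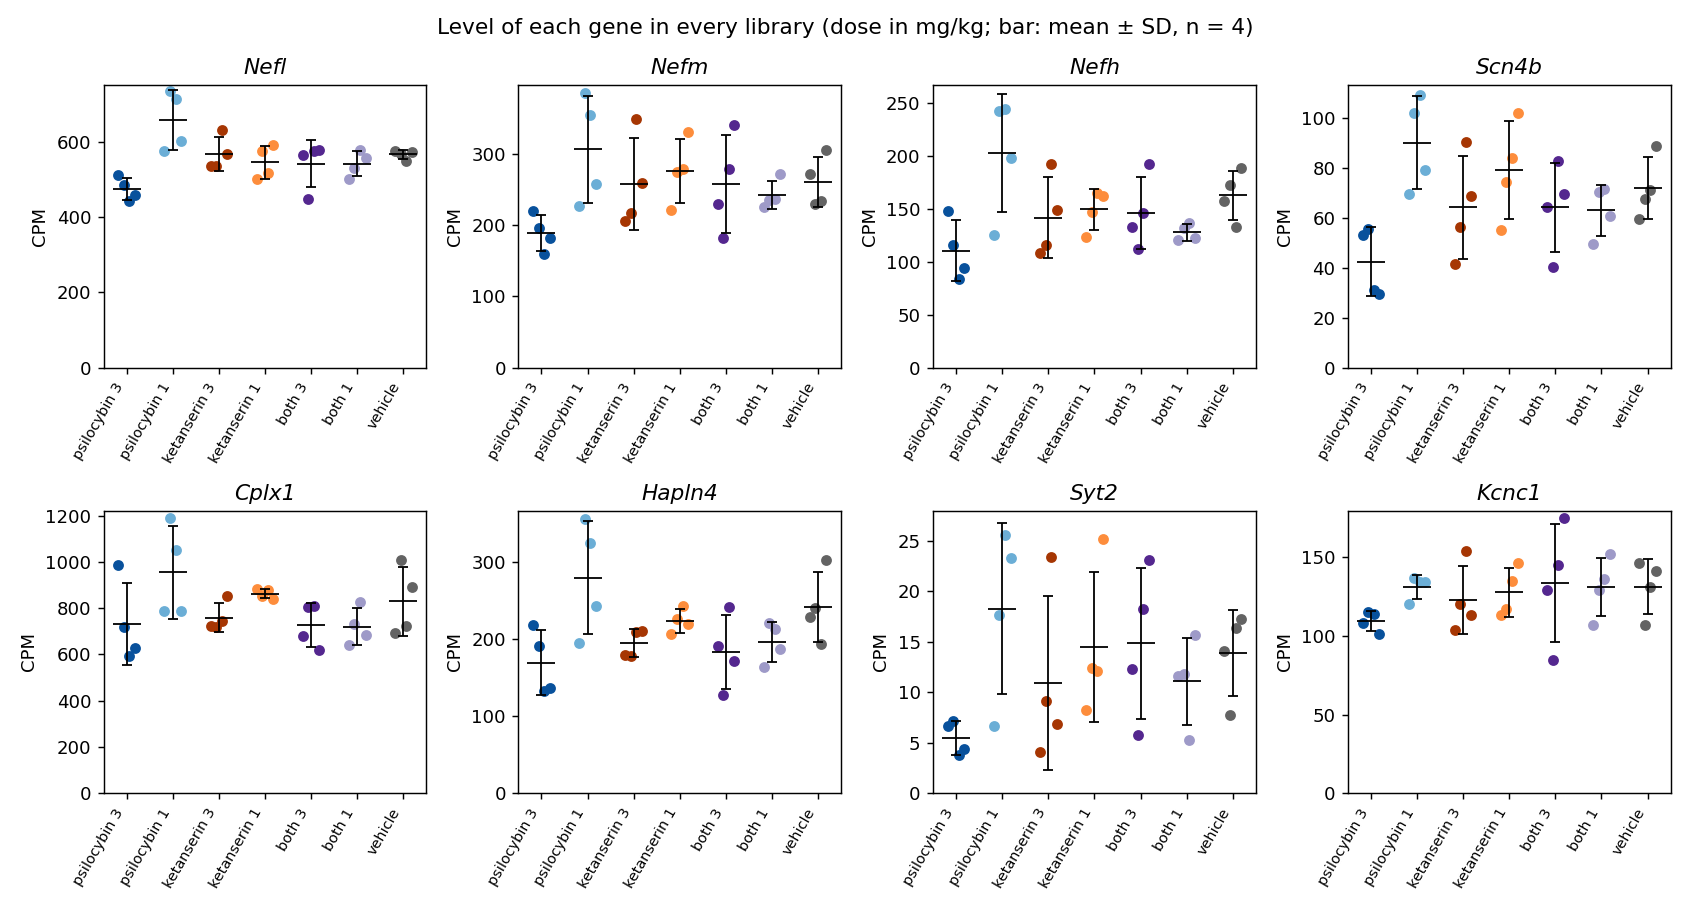
Level in CPM of the 8 genes in each of the 28 libraries, by group from left to right as psilocybin, ketanserin and both drugs (3 then 1 mg/kg in each) and vehicle. Points are libraries and bars the mean ± SD of 4. Psilocybin at 3 mg/kg is the lowest group and psilocybin at 1 mg/kg the highest for 6 of the genes, all but Cplx1 and Kcnc1. Both of these groups served to choose the genes.

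Ratios between the chains were taken from FPKM in the same library, since a filament is built from several chains. Nefm stood at 0.440 ± 0.0326 of Nefl after psilocybin at 3 mg/kg, against 0.511 ± 0.0656 at 1 mg/kg and 0.508 ± 0.0618 in vehicle (SD, n = 4). Nefh stood at 0.203 ± 0.0396 of Nefl after psilocybin at 3 mg/kg, against 0.268 ± 0.0512 at 1 mg/kg and 0.253 ± 0.0330 in vehicle. Ina encodes alpha-internexin, a further subunit of filaments in central axons. Its ratio to Nefl went the other way, at 0.545 ± 0.0769 at 3 mg/kg, against 0.443 ± 0.0498 at 1 mg/kg and 0.518 ± 0.0400 in vehicle. This ratio does not show that Ina itself was higher, since Nefl, the divisor, was chosen for being lower at 3 mg/kg. Libraries of the psilocybin groups overlapped in all 3 ratios. In the combination the ratio of Nefm was 0.522 ± 0.0967 at 3 mg/kg, against 0.496 ± 0.0353 at 1 mg/kg, and that of Nefh 0.236 ± 0.0388 against 0.208 ± 0.0109. With ketanserin alone the ratio of Nefm was 0.498 ± 0.0831 at 3 mg/kg, against 0.560 ± 0.0593 at 1 mg/kg, and that of Nefh 0.217 ± 0.0408 against 0.242 ± 0.0285.

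**Figure D2:**
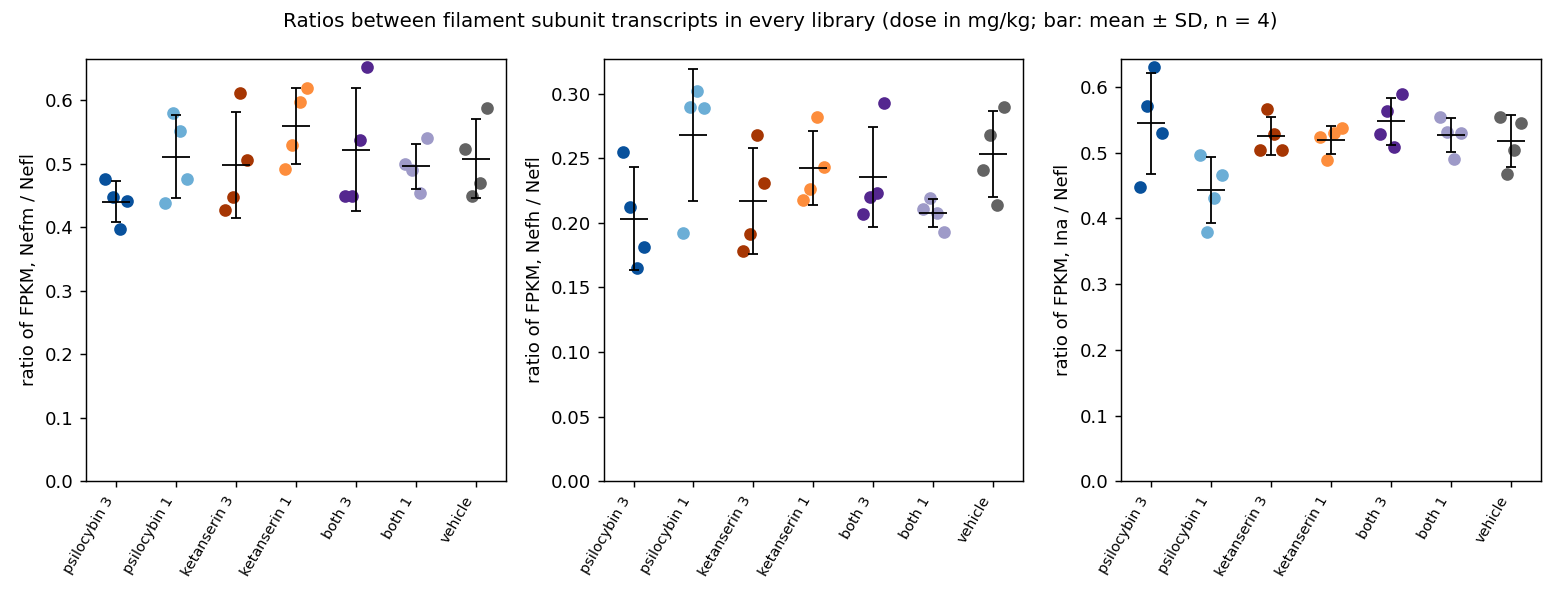
Ratio of the deposited FPKM of Nefm, Nefh and Ina to that of Nefl in each library, by group. Points are libraries and bars the mean ± SD of 4, and the psilocybin groups overlap in each panel, with Nefh between 0.165 and 0.302 of Nefl over all libraries.

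Of the genes for channels that shape fast spikes, Scn4b had the same lowest and highest groups as the filament genes, while Kcnc1 was lowest in the same group but highest with both drugs at 3 mg/kg. Scn4b encodes a sodium channel beta subunit that allows rapid repeated opening (ENSRNOG00000026679, chromosome 8, 49441106 to 49456279, plus strand). It was at 53.1, 55.6, 31.2 and 29.5 CPM after psilocybin at 3 mg/kg, against 69.6, 102, 109 and 79.0 at 1 mg/kg. Vehicle libraries were at 59.4, 67.5, 71.0 and 88.8 CPM. The higher dose lay below the lower dose and below vehicle without overlap. As a log2 difference, the doses lay apart by -1.08 (SE 0.252), a difference of -52.9%. With both drugs Scn4b was at 64.2, 40.1, 82.7 and 69.4 CPM at 3 mg/kg, against 49.4, 70.3, 71.3 and 60.6 at 1 mg/kg, which overlapped. With ketanserin alone it was at 41.4, 56.4, 90.1 and 68.7 CPM at 3 mg/kg, against 55.0, 74.4, 84.0 and 102 at 1 mg/kg.

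Kcnc1 encodes a voltage-gated potassium channel that repolarises fast-spiking neurons quickly (ENSRNOG00000055401, chromosome 1, 102414625 to 102456411, plus strand). It was at 108, 115, 114 and 101 CPM after psilocybin at 3 mg/kg, against 120, 137, 134 and 134 at 1 mg/kg and 146, 107, 131 and 141 in vehicle. The doses did not overlap, with a log2 difference of -0.26 (SE 0.156), and the lowest vehicle library lay within the range of the higher dose. With both drugs Kcnc1 was at 129, 84.8, 145 and 175 CPM at 3 mg/kg, against 107, 129, 136 and 152 at 1 mg/kg. Both its lowest and its highest library of all 28 were in the group given both drugs at 3 mg/kg, the highest being the library that stood apart. With ketanserin alone Kcnc1 was at 104, 120, 154 and 113 CPM at 3 mg/kg, against 113, 117, 135 and 146 at 1 mg/kg, which overlapped.

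The release genes differed in how they behaved. Cplx1, a complexin that clamps and triggers vesicle fusion (ENSRNOG00000000060, chromosome 14, 2194933 to 2226598, plus strand), was at 987, 717, 593 and 627 CPM after psilocybin at 3 mg/kg, against 789, 1190, 1050 and 790 at 1 mg/kg. Vehicle libraries were at 694, 1010, 722 and 892 CPM. Replicate 1 of the higher dose was above 2 libraries of the lower dose, and that is the library with the lowest scaling factor. The log2 difference between the doses was -0.39 (SE 0.151), and -0.56 without replicate 1 of the higher dose. Cplx1 was at 681, 807, 810 and 618 CPM with both drugs at 3 mg/kg, against 643, 731, 825 and 683 at 1 mg/kg. It was at 724, 717, 743 and 855 CPM with ketanserin at 3 mg/kg, against 882, 855, 877 and 838 at 1 mg/kg. Of the ketanserin libraries, only replicate 4 at 3 mg/kg reached the range of the lower dose.

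Syt2, a fast calcium sensor of release (ENSRNOG00000004756, chromosome 13, 51534025 to 51578052, plus strand), was at 6.68, 7.11, 3.75 and 4.35 CPM after psilocybin at 3 mg/kg, against 6.61, 17.6, 25.6 and 23.3 at 1 mg/kg. Vehicle libraries were at 14.1, 7.79, 16.4 and 17.3 CPM. In the lower dose 1 library was at the level of the higher dose, while the other 3 were all above every vehicle library. The log2 difference between the doses was -1.74 (SE 0.508), or -2.02 without psilocybin 1 mg/kg replicate 1. Syt2 was at 12.3, 5.81, 18.2 and 23.1 CPM with both drugs at 3 mg/kg, against 11.6, 11.8, 5.23 and 15.7 at 1 mg/kg. With ketanserin it was at 4.04, 9.18, 23.4 and 6.87 CPM at 3 mg/kg, against 8.25, 12.4, 12.1 and 25.2 at 1 mg/kg. Each of these groups held libraries that differed 3.01-fold to 5.78-fold.

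Hapln4, a link protein that ties hyaluronan to proteoglycans of the perineuronal net (ENSRNOG00000049949, chromosome 16, 21081377 to 21089508, minus strand), was at 218, 191, 133 and 136 CPM after psilocybin at 3 mg/kg, against 195, 355, 324 and 243 at 1 mg/kg. Vehicle libraries were at 229, 240, 194 and 303 CPM. The psilocybin groups overlapped through replicate 1 of each. The log2 difference between the doses was -0.72 (SE 0.189). With both drugs Hapln4 was at 191, 127, 242 and 172 CPM at 3 mg/kg, against 164, 221, 213 and 187 at 1 mg/kg. With ketanserin it was at 179, 178, 209 and 211 CPM at 3 mg/kg, against 206, 226, 243 and 219 at 1 mg/kg.

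Across the psilocybin doses all 8 genes were lower at 3 than at 1 mg/kg, with a median log2 difference of -0.71 against 0.01 over all 17404 genes, 48.1% of which were below 0. For 4 genes (Nefl, Nefm, Scn4b and Kcnc1) all libraries of the higher dose lay below all of the lower, which 1.25% of all genes did in this direction and 1.36% in the other. These counts come from the contrast that chose the genes. The edgeR test called 0 of the 17404 (0%) there, 564 having an unadjusted p under 0.05, while DESeq2 called 6. The median over the 8 genes was -0.83 without psilocybin 1 mg/kg replicate 1 and -0.58 without replicate 2 of that group. Against vehicle, the median over the 8 genes was -0.49 after psilocybin at 3 mg/kg and 0.22 at 1 mg/kg. For 4 genes (Nefl, Nefm, Scn4b and Syt2) all libraries at 3 mg/kg lay below all vehicle libraries, which 1.17% of all genes did (0.942% lay wholly higher). These values share the psilocybin libraries, and the doses share the vehicle libraries, so they are descriptions too.

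Set against psilocybin alone, the combinations were higher on the median at 3 mg/kg and lower at 1 mg/kg. Both drugs minus psilocybin alone gave a median over the 8 genes of 0.34 at 3 mg/kg, from 0.00 for Cplx1 to 1.43 for Syt2, with Scn4b at 0.60 and Nefm at 0.45. At 1 mg/kg the median was -0.46, from -0.01 for Kcnc1 to -0.72 for Syt2, with Nefh at -0.67. These differences use the libraries that chose the genes and were not tested.

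Differences between doses were then tested in libraries that had no part in choosing the genes. The edgeR quasi-likelihood test was used, adjusted by the Benjamini-Hochberg method over 17404 genes. For ketanserin, 3 over 1 mg/kg, 7 of the 8 genes were below 0 and the median log2 difference was -0.14, against 0.01 over all genes. That median was -0.25 without ketanserin 3 mg/kg replicate 3 and -0.03 without ketanserin 1 mg/kg replicate 4. The largest were Syt2 at -0.42 (95% interval -1.43 to 0.60) and Scn4b at -0.30 (-0.81 to 0.22), which was -0.50 and -0.13 without ketanserin 3 mg/kg replicates 3 and 1. Syt2 was at -1.11 without ketanserin 3 mg/kg replicate 3 and -0.02 without ketanserin 1 mg/kg replicate 4. Nefl was at 0.06 (-0.13 to 0.25). None of the 8 passed in edgeR, and of all genes 0 were called (0%) while 286 had an unadjusted p under 0.05. The count was 0 in DESeq2 as well. No gene of the 8 lay wholly lower (0.931% of all genes) or wholly higher (1.05%) at the higher dose.

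For both drugs together, 3 over 1 mg/kg each, 6 of the 8 genes were above 0 and the median log2 difference was 0.03, against 0.00 over all genes. That median ran from -0.04 to 0.19 with 1 library left out. Nefl was at 0.00 (95% interval -0.19 to 0.19), Nefm at 0.09 (-0.29 to 0.47) and Nefh at 0.19 (-0.23 to 0.61). Scn4b was at 0.03 (-0.48 to 0.54), Cplx1 at 0.02 (-0.29 to 0.33) and Kcnc1 at 0.03 (-0.29 to 0.35). Hapln4 was at -0.10 (-0.49 to 0.29) and Syt2 at 0.42 (-0.60 to 1.43). None passed in edgeR, and of all genes 0 were called (0%) while 576 had an unadjusted p under 0.05. The count was 0 in DESeq2. No gene of the 8 lay wholly lower (0.873% of all genes) or wholly higher (0.465%) at the higher dose. Without the library that stood apart, Nefm was at -0.07, Nefh at 0.03, Scn4b at -0.01, Kcnc1 at -0.13 and Syt2 at 0.12. The difference between the dose effect of both drugs and that of ketanserin was -0.06 (SE 0.131) for Nefl, 0.32 (SE 0.351) for Scn4b and 0.83 (SE 0.694) for Syt2, and none of the 8 passed (edgeR adjusted p = 1.00). No gene of the table passed that test, with 470 at an unadjusted p under 0.05.

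**Figure D3:**
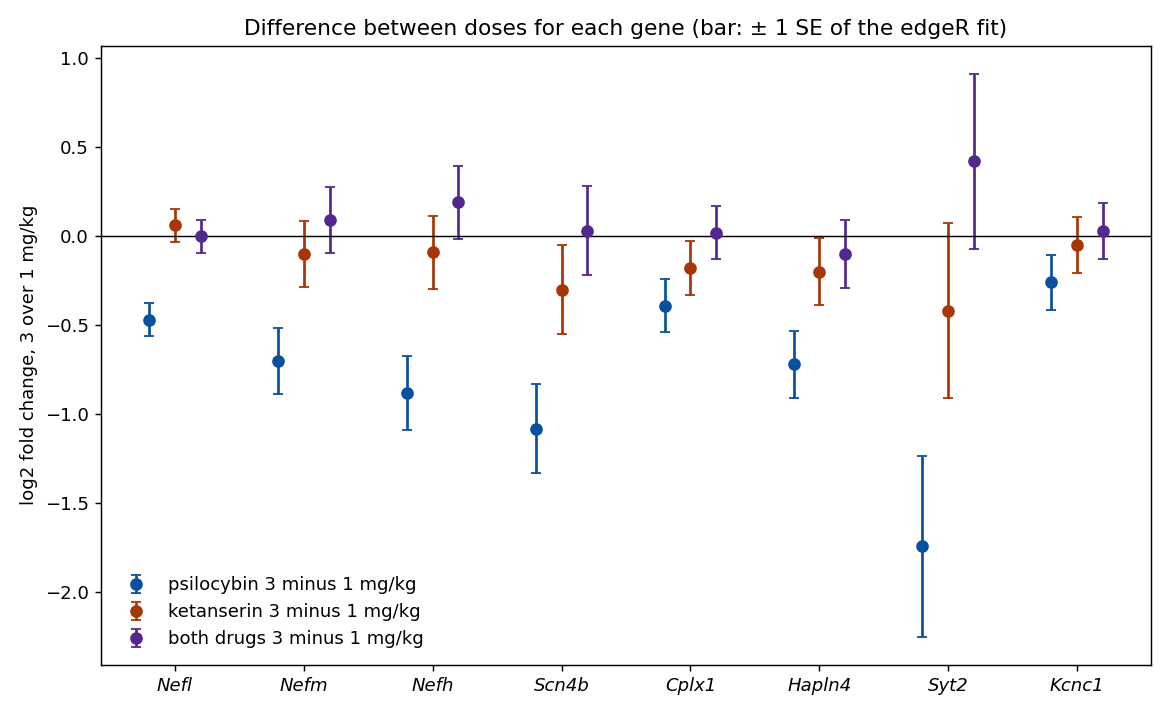
Log2 fold change of 3 over 1 mg/kg for each gene, for psilocybin, ketanserin and both drugs. Points are the edgeR estimates and bars ± 1 SE; psilocybin, the contrast that chose the genes, runs from -1.74 to -0.26, ketanserin from -0.42 to 0.06 and both drugs from -0.10 to 0.42.

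Against vehicle, none of the 8 genes passed in the 4 groups given ketanserin with or without psilocybin. Both drugs at 3 mg/kg gave a median log2 difference of -0.11 over the 8 genes, against -0.02 over all genes. That median was 0.01 without replicate 2 of this group and -0.19 without replicate 4. Hapln4 was the farthest from 0, at -0.40 (SE 0.189, 95% interval -0.79 to -0.01). Its unadjusted p in edgeR was 0.043 and its adjusted p 0.999, and the difference was -0.56 and -0.26 without replicates 3 and 2 of this group. That comparison had 1 called gene in the table (0.00575%), which is none of the 8, and 544 at an unadjusted p under 0.05. Both drugs at 1 mg/kg gave 8 of 8 genes below 0 with a median of -0.20 (-0.28 to -0.12 with 1 library left out), where 53.1% of all genes were below 0, and edgeR called 0 genes (0%). Nefh was at -0.35 (95% interval -0.78 to 0.07) and Hapln4 at -0.30 (-0.69 to 0.09) there. Hapln4 at 1 mg/kg was -0.17 without vehicle replicate 4.

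Ketanserin at 3 mg/kg gave a median of -0.14 against vehicle, which was -0.28 and -0.05 without its replicates 3 and 1, with 0 genes called (0%) and Hapln4 at -0.32 (95% interval -0.70 to 0.07), or -0.18 without vehicle replicate 4. Ketanserin at 1 mg/kg gave a median of 0.01 (-0.09 without its replicate 4), with 0 genes called (0%) and a range from -0.12 for Nefh to 0.14 for Scn4b. In none of the 4 comparisons with vehicle did a gene of the 8 lie wholly apart from it. Of all genes, 1.15% lay wholly lower and 0.718% wholly higher for ketanserin at 1 mg/kg, 1.03% and 0.672% for ketanserin at 3 mg/kg, 0.649% and 0.667% for both drugs at 1 mg/kg, and 0.741% and 0.396% for both drugs at 3 mg/kg. These 4 comparisons share the vehicle libraries. Psilocybin added to ketanserin gave a median of 0.00 at 3 mg/kg (0.19 without ketanserin replicate 3) and -0.21 at 1 mg/kg (-0.14 without ketanserin replicate 4), both with 0 genes called (0%). The lowest there was Syt2 at 1 mg/kg, at -0.38 (95% interval -1.39 to 0.63), and the highest Syt2 at 3 mg/kg, at 0.45 (-0.56 to 1.46). Cplx1 did not overlap at 1 mg/kg, with 643, 731, 825 and 683 CPM with both drugs, against 882, 855, 877 and 838 CPM with ketanserin alone. It was the only one of the 8 genes to lie wholly lower there, which 1.56% of all genes did (1.57% lay wholly higher), and its log2 difference was -0.26 (95% interval -0.57 to 0.05; adjusted p = 1.00, edgeR). At 3 mg/kg none of the 8 lay wholly lower (1.05% of all genes) or higher (0.649%).

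Over these 8 comparisons there were 64 tests of the 8 genes, of which edgeR called 0 and 1 had an unadjusted p under 0.05. In each comparison, 227 to 594 of all 17404 genes (1.3 to 3.41%) had an unadjusted p under 0.05. The widths of the intervals differ by gene, so that Nefl was measured most closely and Syt2 least. In the test for any difference among the 5 groups without psilocybin alone, the adjusted p in edgeR was 1.00 for each of the 8 genes. Their unadjusted p ran from 0.220 for Hapln4 to 0.951 for Kcnc1. That test called 1 of 17404 genes (0.00575%), none of the 8, with 353 at an unadjusted p under 0.05.

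The groups given psilocybin alone served to choose the genes, so their place in the order of group means is a description. Psilocybin at 3 mg/kg was lowest for 7 of the 8 genes and psilocybin at 1 mg/kg highest for 7. The exceptions were Cplx1, lowest with both drugs at 1 mg/kg (720 ± 78.6 CPM, against 731 ± 179 after psilocybin at 3 mg/kg), and Kcnc1, highest with both drugs at 3 mg/kg (133 ± 37.7 CPM). Between the ends, Nefl means ran from 542 ± 63.2 CPM with both drugs at 3 mg/kg to 568 ± 45.5 with ketanserin at 3 mg/kg. Scn4b means ran from 62.9 ± 10.2 with both drugs at 1 mg/kg to 78.8 ± 19.5 with ketanserin at 1 mg/kg. Between the ends of the order, neighbouring means of Nefl and of Scn4b differed by less than the larger of their SDs.

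Most of the 8 genes varied together between animals of a group. After each gene's log2 CPM was centred on its group mean, Pearson r over 28 libraries was above 0.5 in 20 of 28 gene pairs. The median was 0.69 (Spearman rho 0.69; r of 0.58 without the 2 libraries farthest from the median of the first gene of each pair). The highest pair was Nefm with Nefh, at 0.88, followed by Nefl with Nefm at 0.87. The lowest was Cplx1 with Kcnc1, at -0.20, and Cplx1 was also the gene with the lowest r to the mean of the other 7, at 0.26 (rho 0.27; 0.41 without the 2 farthest libraries). That r was 0.92 for Nefm, 0.88 for Nefh and Scn4b, 0.85 for Nefl, 0.74 for Hapln4 and 0.69 for Syt2 and Kcnc1. These are descriptions, since the points share the library, its depth and its scaling.

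**Figure D4:**
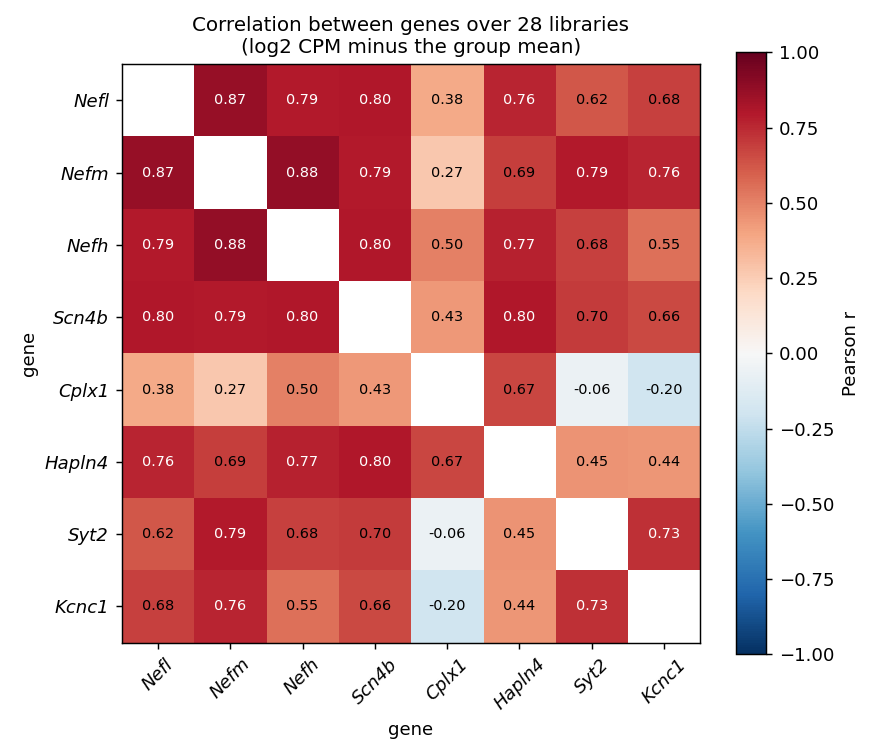
Pearson r between the 8 genes over 28 libraries, from log2 CPM centred on the mean of each group of 4. The filament genes and Scn4b are joined at 0.79 to 0.88, and Cplx1 with Kcnc1 is the lowest at -0.20.

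The same variation could be seen library by library as the mean log2 deviation of the 8 genes from their mean over all 28. It was -0.13, -0.26, -0.68 and -0.62 after psilocybin at 3 mg/kg, against -0.13, 0.58, 0.60 and 0.29 at 1 mg/kg and 0.09, 0.02, 0.04 and 0.34 in vehicle. Replicate 1 had the same mean in both psilocybin groups, and the other 3 animals of each lay apart. Outside these groups the deviation reached -0.49 (both drugs at 3 mg/kg, replicate 2) and 0.36 (replicate 3 of ketanserin at 3 mg/kg and replicate 4 at 1 mg/kg).

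The 10 other genes whose variation within groups was most like the mean of the 8 were found among 11406 named genes whose log2 CPM averaged 2 or more. The measure was Pearson r over 28 libraries. Nat8l, the enzyme that makes N-acetylaspartate in neurons, led at 0.90 (rho 0.89; 0.87 without the 2 farthest libraries) with a mean of 574 CPM. Kcnab3, a beta subunit of potassium channels, was at 0.81, the receptor tyrosine kinase Flt3 and the membrane-anchored semaphorin Sema7a at 0.79, and Rgs4, which turns off G protein signals, at 0.78. The neuronal repressor Scrt1 was at 0.77, the sorting nexin Snx25 at 0.75 and netrin-G1 (Ntng1) at 0.73. Epb41l3, which links membrane proteins to the cytoskeleton, and the adhesion molecule neurotrimin (Ntm) were at 0.72. The median r over all these genes was -0.01 and the top 5% began at 0.40.

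The mean of each marker list was also compared with the mean of the 8 genes over the 28 libraries, as a description of bulk RNA. Parvalbumin interneuron markers had r of 0.14 within groups (10 genes; 0.00 without the 2 farthest libraries). Single genes of that list ran from -0.65 for Tac1, a neuropeptide precursor, to 0.69 for Gad1, an enzyme of GABA synthesis, with Pvalb at 0.21. Layer 5 and 6 neuron markers had r of -0.75 (rho -0.75; -0.67 without the 2 farthest libraries, 13 genes). In that list, Sulf1 was at -0.77, Ntsr1 at -0.74, Crym at -0.70 and Fezf2 at -0.49. Etv1 was at 0.42, Tbr1 at 0.08 and Bcl11b at 0.04, and the other genes of the list were below 0. Microglia markers had r of -0.62 (-0.53 without the 2 farthest libraries) and olfactory bulb markers -0.61 (-0.53, 4 of 7 listed genes tested). In the olfactory bulb list, Eomes and Tbx21 were at 0 in 10 and 12 of 28 libraries. Its gene Calb2 is shared with the list of other interneuron markers. The values of that list therefore need not reflect olfactory bulb tissue. Thalamus and brainstem markers were at 0.48 (0.28), endothelial and mural markers at 0.45 (0.35) and fast potassium channels at 0.45 (0.24), with the value without the 2 farthest libraries in brackets. Astrocyte markers were at 0.32 (0.09) and myelin markers at 0.24 (0.33). Upper layer markers were at 0.12 (-0.09), blood genes at 0.11 (-0.01), other interneuron markers at 0.09 (-0.06) and striatum markers at 0.03 (0.07).

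Between the psilocybin doses the lists differed, with no gene of any list called by edgeR. Myelin and mature oligodendrocyte markers summed to 2540 to 6190 CPM after psilocybin at 3 mg/kg, against 3370 to 9220 at 1 mg/kg and 3140 to 8620 in vehicle. All 14 markers were lower at 3 than at 1 mg/kg, with a median log2 difference of -0.68. In the combination all 14 were lower at 3 mg/kg too, with a median of -0.30, where the median of the 8 genes was 0.03. Between the ketanserin doses 13 of the 14 were higher at 3 mg/kg and 1 lower. The median there was 0.22, where that of the 8 genes was -0.14. Against vehicle, the myelin markers had medians of -0.39 after psilocybin at 3 mg/kg and 0.20 at 1 mg/kg. Those of the 8 genes were -0.49 and 0.22. Both drugs minus psilocybin alone gave myelin medians of 0.20 at 3 mg/kg and -0.19 at 1 mg/kg. The 8 genes were at 0.34 and -0.46 there. These values share the libraries that chose the genes. Both drugs minus ketanserin at 1 mg/kg gave 0.35 for the markers and -0.21 for the 8 genes. Layer 5 and 6 markers summed to 824 to 989 CPM after psilocybin at 3 mg/kg, against 675 to 973 at 1 mg/kg, and had 8 of 13 genes lower (median -0.05). Parvalbumin markers summed to 512 to 722 CPM at 3 mg/kg, against 602 to 704 at 1 mg/kg, with 6 of 10 lower (median -0.06). Single genes of that list ran from -0.42 for Erbb4 to 1.34 for Kcnip2, with Pvalb itself at -0.22. Lists that were higher on the median at 3 mg/kg were microglia (6 of 8 genes higher, median 0.22), blood genes (6 of 6, 0.22), olfactory bulb (3 of 4, 0.22), upper layer (6 of 9, 0.16), other interneurons (8 of 9, 0.10) and astrocytes (5 of 8, 0.07). Microglia markers summed to 228 to 308 CPM at 3 mg/kg, against 220 to 262 at 1 mg/kg. For upper layer and astrocyte markers the summed CPM went the other way from the median. Upper layer markers averaged 518 CPM at 3 mg/kg against 551 at 1 mg/kg, and astrocyte markers 3000 against 3080. Striatum (5 of 9 lower, -0.16), thalamus and brainstem (5 of 8, -0.09) and endothelial and mural markers (4 of 5, -0.06) were lower on the median. The part of these cell types in the values of the 8 genes was not tested.

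**Figure D5:**
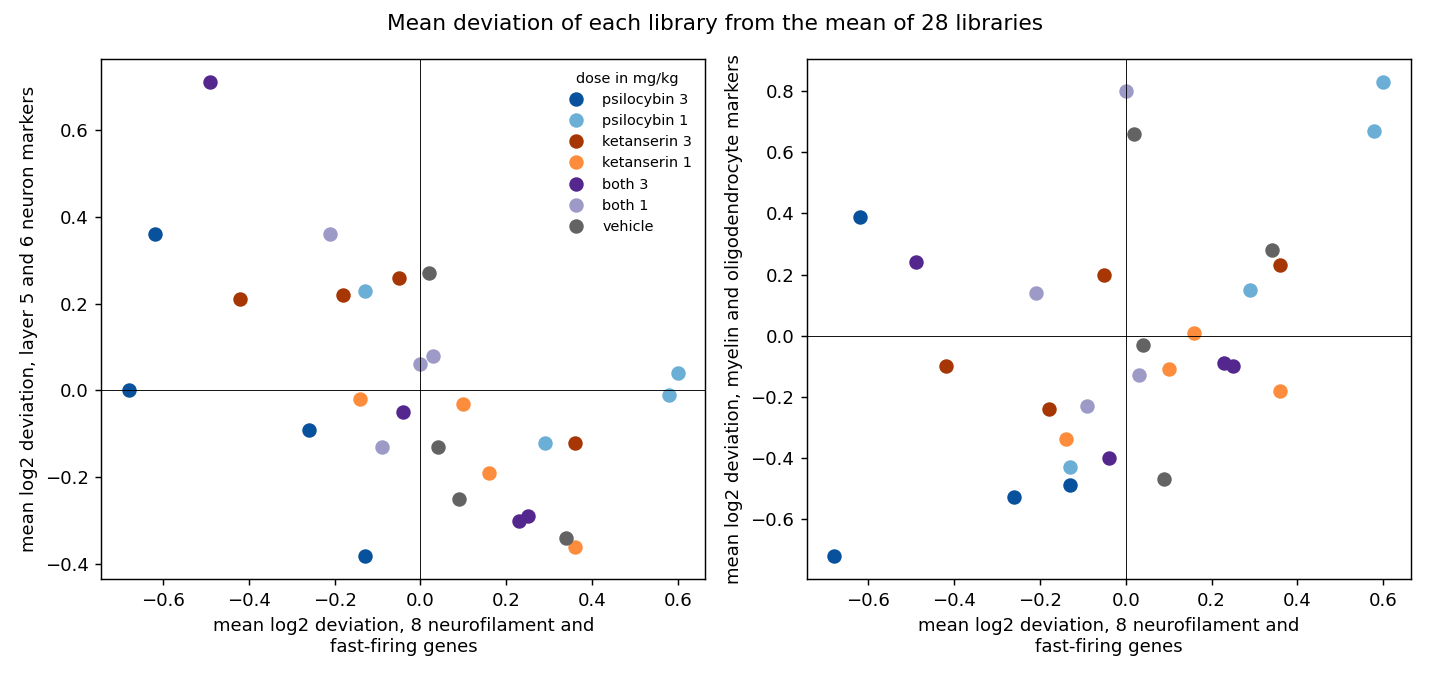
Mean log2 deviation of each library from the mean of 28, with the 8 neurofilament and fast-firing genes on the x axis and layer 5 and 6 neuron markers (left) or myelin and oligodendrocyte markers (right) on the y axis. Points are libraries coloured by group. In the left panel, both drugs at 3 mg/kg replicate 2 lies at -0.49 and 0.71. Psilocybin 1 mg/kg replicates 2 and 3 lie at the upper right of the right panel (0.58 with 0.67, and 0.60 with 0.83). Psilocybin 3 mg/kg replicate 4 lies at its upper left (-0.62 with 0.39), and r within groups for the myelin markers is 0.24.

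Related genes outside the 8 were read from 7 pathway lists, in the 8 comparisons that did not use psilocybin alone. No gene of any list passed in edgeR in either direction, with 3 results at an unadjusted p under 0.05. Of all genes tested, 1.3 to 3.41% were under 0.05 in each of these comparisons. The means below with both drugs at 3 mg/kg include the library that stood apart, and were not taken without it. Other intermediate filaments had 5 of 6 genes tested, and Gfap, of astrocytes, was at 467 ± 81.1 CPM with both drugs at 3 mg/kg, against 418 ± 29.5 at 1 mg/kg. Vim, vimentin, was at 91.0 ± 10 CPM against 78.7 ± 9.27. In filament transport and modification (7 of 8 tested) the kinase Cdk5 was at 104 ± 34.8 CPM against 110 ± 15.1. Among the 10 sodium channel genes, Scn3a was at 24.6 ± 12.6 CPM against 21.9 ± 7.08. Among the 10 fast potassium channels, Kcnab3 was at 23.6 ± 4.44 CPM against 24.1 ± 2.95 and Kcna6 at 145 ± 18.6 against 143 ± 2.41.

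At the axon initial segment and node (9 of 10 genes tested) Cntnap1, which anchors the paranode, had the lowest p among the 5 groups without psilocybin alone (unadjusted p = 0.0408, adjusted p = 1.00, edgeR). It was at 487 ± 45.9 CPM with both drugs at 3 mg/kg and 515 ± 30.9 at 1 mg/kg, 557 ± 30.0 and 578 ± 30.3 with ketanserin at 3 and 1 mg/kg, and 570 ± 34.4 in vehicle. Sptbn4, the spectrin of that site, was at 425 ± 19.1 CPM with both drugs at 3 mg/kg, against 400 ± 27.5 at 1 mg/kg. Of the 12 release genes, Unc13a, which primes vesicles, was at 230 ± 157 CPM against 164 ± 29.2 and Cplx3 at 15.9 ± 13.6 against 17.2 ± 4.30. The library that stood apart is again part of the group at 3 mg/kg. Of the perineuronal net (9 of 10 tested), the proteoglycans Vcan and Bcan were at 12.2 ± 1.16 against 14.7 ± 3.00 CPM and 300 ± 34.4 against 297 ± 12.1 CPM.

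Between the psilocybin doses the lists differed in how far they went with the 8 genes, again as a description. Fast potassium channels had 9 of 10 genes lower at 3 than at 1 mg/kg (median log2 difference -0.28), from 0.00 for Kcna6 to -0.70 for Kcnab3, which was at 20.2 ± 4.40 CPM against 32.9 ± 10.6. Initial segment and node genes had 7 of 9 lower (median -0.17), with Cntnap1 at -0.30. Filament transport had 6 of 7 lower (-0.11). Sodium channels were divided 5 and 5 (-0.02). Release genes had 7 of 12 lower (-0.02), other intermediate filaments 4 of 5 (-0.02) and the perineuronal net 4 of 9 (0.03).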

How the data were processed

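Poly(A) RNA from 28 rat prefrontal cortices was sequenced as directional (dUTP) libraries, per the labels' protocols. The submitters' processing notes name HISAT2 2.0.5, StringTie 1.3.3b, featureCounts 1.5.0-p3 and the build rn6. Whether reads were counted by strand is not stated. The deposited table holds whole-number counts of reads per gene, made by the authors. A further table deposited by the authors holds FPKM, used only for levels per length and ratios.

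Counts were scaled by TMM and fitted in edgeR 4.0.16 (R 4.3.3) over 7 groups and 28 libraries, with 17404 genes kept by the filter on low counts and 21 residual degrees of freedom. The quasi-likelihood F test was adjusted by the Benjamini-Hochberg method and read at 0.05. CPM in the text is from these counts, and log2 CPM used a prior count of 2. DESeq2 1.42.0, other scaling, no filter, only the groups compared and leaving out each library were tried. Replicate numbers follow deposit order. The 8 genes, the 19 gene lists and the tests were chosen with earlier results of these data known. Named genes are the 8, the 10 most alike in variation within groups, and the 2 genes of each pathway list with the lowest p among the 5 groups without psilocybin alone; marker genes, Gad1 and Pvalb among them, named with r or fold values are examples from the lists. Some genes that this rule names are not reported here.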

Additional observations from a re-analysis of the deposited data

Results flagged for a closer look

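Nefl in replicate 2 of the rats given both drugs at 3 mg/kg was at 448 CPM, while the other 3 libraries of that group were at 564 to 578 CPM. Its gap to the nearest library was 0.893 of the range of the group, above the limit of Dixon's test for 4 values at the 95% level. The check was made for 8 genes in 7 groups, 56 in all, and chance alone gives about 1 in 20. The same library had a mean log2 deviation of -0.49 over the 8 genes, and of 0.71 over layer 5 and 6 neuron markers, the highest of the 28. The part of tissue make-up in this value was not tested.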

How the results depend on the processing

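No paired analysis was possible because the labels give the groups no shared replicate numbers. None of the 8 genes was called under any alternative in the comparisons without psilocybin alone. Between the psilocybin doses, the contrast that chose the genes, DESeq2 called 6 genes, Nefl and Scn4b among them. Nefl and Scn4b were chosen for being lower in that contrast, so their calls are no support. With 1 library left out, edgeR called 0 to 4 genes between these doses (4 without psilocybin 1 mg/kg replicate 1). With only the groups compared, edgeR called 2 genes for ketanserin at 1 mg/kg against vehicle, 1 for ketanserin at 3 mg/kg, 2 for both drugs at 1 mg/kg, 1 for both drugs against ketanserin at 3 mg/kg and 0 among the 5 groups. DESeq2 called 1, 1, 1, 5 and 4 genes there in the same order. Without the filter, both drugs at 3 mg/kg against vehicle and the test among 5 groups had 0 calls in place of 1. With 1 library left out, calls ran from 0 to 1 in both of these, in both drugs at 1 mg/kg against vehicle and in both drugs against ketanserin at 3 mg/kg.

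Some differences near 0, none of them called, changed sign. Nefl between the doses of both drugs was at 0.01 with DESeq2 size factors, 0.00 with only these groups and 0.01 in DESeq2. With 1 library left out, the differences between the doses of both drugs ran from -0.04 to 0.08 for Nefl, -0.07 to 0.22 for Nefm, -0.12 to 0.19 for Scn4b, -0.04 to 0.09 for Cplx1, -0.26 to 0.03 for Hapln4 and -0.13 to 0.19 for Kcnc1. Between the ketanserin doses they ran from -0.27 to 0.03 for Nefh and -0.18 to 0.02 for Kcnc1. The causes were not tested. In a result added after the data were seen, the median of the 8 genes between the psilocybin doses ran from -0.83 to -0.58 with 1 library left out. Other scaling moved the median of all genes by at most 0.011. Syt2, with the fewest reads, had the widest intervals.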
